A study of Mus musculus with 6 samples.

Results

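Solute carriers are membrane proteins that move nutrients, ions and metabolites across the plasma membrane and the membranes of organelles. The members described here are the genes whose symbol has the form Slc, family number, letter and gene number, and whose RPKM (reads per kilobase of gene length, scaled by library depth) was over 0.5 in at least 2 of the 6 leukemias. The threshold was applied to the measured RPKM of both cohorts, so the presence of a gene among the members is itself read from these values and is given as a description. Of 41128 genes in the table, 375 carried such a symbol, 367 of them protein-coding, and 141 were members. Of the 141 members 139 were protein-coding and were compared between the cohorts, and 2 were pseudogenes, which were not tested.

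The carriers are grouped in families by sequence, and the substrate is often shared within a family: glucose, amino acids, monocarboxylates, nucleosides, metals, vitamins, or the metabolites that the mitochondrial carrier family takes across the inner mitochondrial membrane. Some work alone, and others need a partner chain to reach the membrane, such as the heavy subunit of the heteromeric amino acid carriers or basigin for the lactate carriers. In blood cells they are known for glutamine and leucine uptake in dividing blasts, lactate release, iron recycling by macrophages and delivery of iron and glycine for heme in red cell precursors.

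The comparison asks how the RNA of these carriers differs between murine acute myeloid leukemias that were started by *Hoxa9* together with human *IRX3* and leukemias started by *Hoxa9* with the empty vector MTV. KIT+ marrow cells of young adult female CD45.1+ donors (B6.SJL-PtprcaPepcb/BoyJ in the study's methods, C57BL/6 in the sample labels) were infected with a pair of retroviruses, *Hoxa9* with *IRX3* or *Hoxa9* with MTV, selected with drugs, and given with helper marrow to lethally irradiated congenic CD45.2+ young adult female recipients. Marrow of mice that fell ill was frozen, thawed, and sorted by flow for viable donor-derived KIT+Gr1+ cells, and polyA strand-specific libraries were read in pairs of 75 bases. The paper reports that leukemia came later in *Hoxa9*/*IRX3* than in *Hoxa9*/MTV recipients. Time since transplant and age at illness thus go with the cohort, and their part cannot be told apart from that of the introduced gene. There was 1 library per mouse and there were 3 mice per cohort, numbered 1.1, 1.2 and 1.4 in the *Hoxa9*/MTV cohort and 3.2, 3.3 and 3.5 in the *Hoxa9*/*IRX3* cohort. Each leukemia grew from a pool of transduced cells, no mouse of a cohort is matched to a mouse of the other, and the p-values measure the spread between these mice. The reads recovered from the values numbered 8843083, 8305937 and 9672522 in mice 1.1, 1.2 and 1.4, and 8860734, 9803621 and 7979246 in mice 3.2, 3.3 and 3.5. All values given per cohort follow this order of mice.

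The sort label was checked against marker genes. *Kit* measured 3.12, 2.64 and 2.48 RPKM in the *Hoxa9*/MTV mice and 2.7, 1.63 and 2.14 in the *Hoxa9*/*IRX3* mice. Of 10 sort and lineage genes, 9 passed the filter of over 0.5 RPKM in at least 1 mouse. At the thresholds used for the carriers (given with the first count of calls) 2 rose, beside 1.10% of all tested genes. The neutrophil elastase gene *Elane* held the highest level of the list, with 716, 1053 and 614 RPKM in the *Hoxa9*/MTV mice and 3324, 3332 and 2237 in the *Hoxa9*/*IRX3* mice. The other was *Ly6g*, a Gr1 antigen that passed the filter in *Hoxa9*/*IRX3* mice alone. Its values were 0.145, 0.124 and 0.0532 RPKM in the *Hoxa9*/MTV mice and 1.42, 0.682 and 1.13 in the *Hoxa9*/*IRX3* mice. Other primary granule genes, *Mpo*, *Ctsg* and *Prtn3*, were higher in every *Hoxa9*/*IRX3* mouse without passing the test, by log2 fold changes of 0.70, 1.03 and 0.71. The other Gr1 antigen gene *Ly6c2* measured 413, 478 and 439.9 RPKM in the *Hoxa9*/MTV mice and 414, 789.7 and 844 in the *Hoxa9*/*IRX3* mice, so RNA of the sorted antigens was present in every mouse, while *Ly6g* stood higher in each *Hoxa9*/*IRX3* mouse than in any *Hoxa9*/MTV mouse. *Ptprc*, which encodes CD45, ranged from 1.53 to 2.09 RPKM over the 6 mice. Reads on the introduced *Hoxa9* were abundant in every mouse, with 340.1, 363 and 174 RPKM in the *Hoxa9*/MTV mice and 242, 154 and 221 in the *Hoxa9*/*IRX3* mice. Reads on mouse *Irx3* numbered 474, 15 and 4 in mice 3.2, 3.3 and 3.5 and 0 in each *Hoxa9*/MTV mouse; the introduced gene is human, and its reads were aligned to the mouse genome.

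The *Hoxa9*/*IRX3* leukemias differed more among themselves than the *Hoxa9*/MTV leukemias did. Over the 139 tested members the SD of log2(RPKM + 0.5) had a median of 0.13 in the *Hoxa9*/MTV mice and 0.26 in the *Hoxa9*/*IRX3* mice, and it was larger in the *Hoxa9*/*IRX3* cohort for 109 members, 78.4% of them, beside 76% of all tested genes. Pearson's r over the members, a description across genes that are not independent replicates, ran from 0.982 to 0.986 within the *Hoxa9*/MTV cohort, from 0.901 to 0.938 within the *Hoxa9*/*IRX3* cohort and from 0.831 to 0.905 for pairs that cross the cohorts. Mouse 3.5, the library with the fewest reads, was the lowest of the 6 mice in 53 members, 38.1% of them, beside 33.3% of all tested genes. Mouse 1.4 was the highest in 37 members. The medians of the members' log2(RPKM + 0.5) were 1.56, 1.45 and 1.59 in the *Hoxa9*/MTV mice and 1.46, 1.502 and 1.27 in the *Hoxa9*/*IRX3* mice.

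Most members were measured in every leukemia. Of the 141 members, 111 were over 0.5 RPKM in all 6 mice and 30 in 2 to 5 mice; of these 30, 2 passed the threshold in *Hoxa9*/MTV mice alone, 7 in *Hoxa9*/*IRX3* mice alone and 21 in mice of both cohorts. The 9 members that passed in a single cohort had to be high in that cohort, and they are named with their class. Just inside the threshold were *Slc14a1*, with 0.503 RPKM in its second highest mouse, and *Slc11a2*, with 0.514; just outside were *Slc35d2*, with 0.488, and *Slc37a1*, with 0.456. Of the 234 genes with such a symbol that were not members, 12 coding genes were over 0.5 RPKM in 1 mouse and entered the comparison as tested genes, though not as members.

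The RPKM in the table divide by the whole gene, introns included, so levels of different genes are compared here per exon length. On that scale the median member stood at 10.4 over the 6 mice, beside 10.5 for all tested genes. The members ran from 0.890 for the zinc importer *Slc39a4* to 179.6 for the heme carrier *Slc48a1*. Next came the mitochondrial adenine nucleotide carrier *Slc25a5* at 167, the GDP-fucose carrier *Slc35c1* at 93.03 and the zinc importer of the endoplasmic reticulum *Slc39a7* at 82.04. The 10 highest members held 32.4% of the level summed over all members. The sum was 2640 in the mean *Hoxa9*/MTV mouse and 2519 in the mean *Hoxa9*/*IRX3* mouse, and the mitochondrial carriers held the largest class share, 24.7% of it in *Hoxa9*/MTV and 23.2% in *Hoxa9*/*IRX3* mice.

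**Figure D1:**
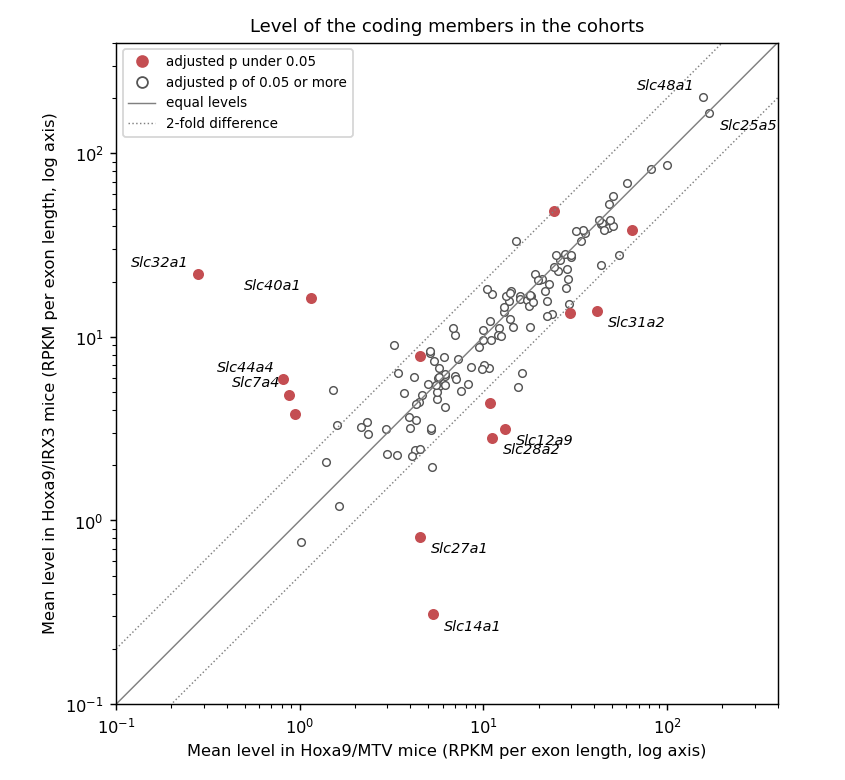
Mean level of each of the 139 coding members in the *Hoxa9*/MTV mice (horizontal axis) and the *Hoxa9*/*IRX3* mice (vertical axis), in RPKM per exon length on log axes, with lines at equal levels and at a 2-fold difference; filled points have an adjusted p under 0.05 in limma. Most members lie near the line of equal levels from about 1 to 200 units, and *Slc40a1* and *Slc32a1* lie farthest above it.

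Most carriers differed little between the cohorts, and the few that passed the test were mostly carriers with low RPKM in at least 1 cohort. A gene was called at an adjusted p under 0.05 (limma, over 9522 tested genes) and at least a 2-fold change on log2(RPKM + 0.5), *Hoxa9*/*IRX3* minus *Hoxa9*/MTV. Called members numbered 8, or 5.76% of the 139, beside 3.13% of all tested genes. Higher in *Hoxa9*/*IRX3* mice were 4 members, beside 1.10% of all tested genes: the iron exporter *Slc40a1*, the vesicular inhibitory amino acid carrier *Slc32a1*, the amino acid carrier family member *Slc7a4* and the choline-like carrier *Slc44a4*. Lower were 4, beside 2.03%: the cation-chloride cotransporter family member *Slc12a9*, the fatty acid transport protein *Slc27a1*, the nucleoside carrier *Slc28a2* and the copper carrier *Slc31a2*. The split of 4 higher and 4 lower became 5 and 3 under median-of-ratios scaling and under quantile normalization, where *Slc16a1* was called and *Slc28a2* was not. Of the 8 called members, 1 was over 0.5 RPKM in all 6 mice, 7 passed in 2 to 5 mice, and 4 of those passed in a single cohort, so these counts are not a share of members measured evenly in both cohorts.

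Without the 2-fold limit 15 members had an adjusted p under 0.05, beside 5.36% of all tested genes: 7 higher, beside 1.84%, and 8 lower, beside 3.52%. Among those that this adds are *Slc16a1*, *Slc22a15* and *Slc35g1* on the higher side and *Slc25a38*, *Slc14a1* and *Slc44a2* on the lower. Of the 15, 6 were over 0.5 RPKM in all 6 mice and 6 passed in a single cohort. At an unadjusted p under 0.05 there were 37, a count given without the share of all tested genes, so nothing is read from it. The same holds for every count at an unadjusted p under 0.05 given below for a class, family or list. The study's criterion, an unadjusted p under 0.05 on mean RPKM with a ratio of means over 2, took 15 members, beside 6.97% of all tested genes: 6 higher, beside 2.26%, and 9 lower, beside 4.72%.

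Several of these calls were lost when a single mouse was left out. *Slc40a1*, *Slc12a9* and *Slc27a1* were called with any 1 mouse left out. The members called numbered 3, 3 and 4 without mice 1.1, 1.2 and 1.4, and 10, 8 and 6 without mice 3.2, 3.3 and 3.5. Leaving out mouse 3.2 added, among others, *Slc25a37*, *Slc25a45* and *Slc35c2*, and leaving out mouse 3.3 added *Slc12a4*, *Slc16a1* and *Slc2a6*. The other 5 called members, *Slc32a1*, *Slc7a4*, *Slc44a4*, *Slc31a2* and *Slc28a2*, each lost the call in at least 2 of these 6 fits. In that order, their log2 fold changes over the 6 fits ran from 2.82 to 4.41, 1.315 to 1.582, 0.998 to 1.495, -1.33 to -0.98 and -1.37 to -0.92. Every such fit has 1 mouse fewer in a cohort, so a lost call does not by itself show a smaller difference.

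**Figure D2:**
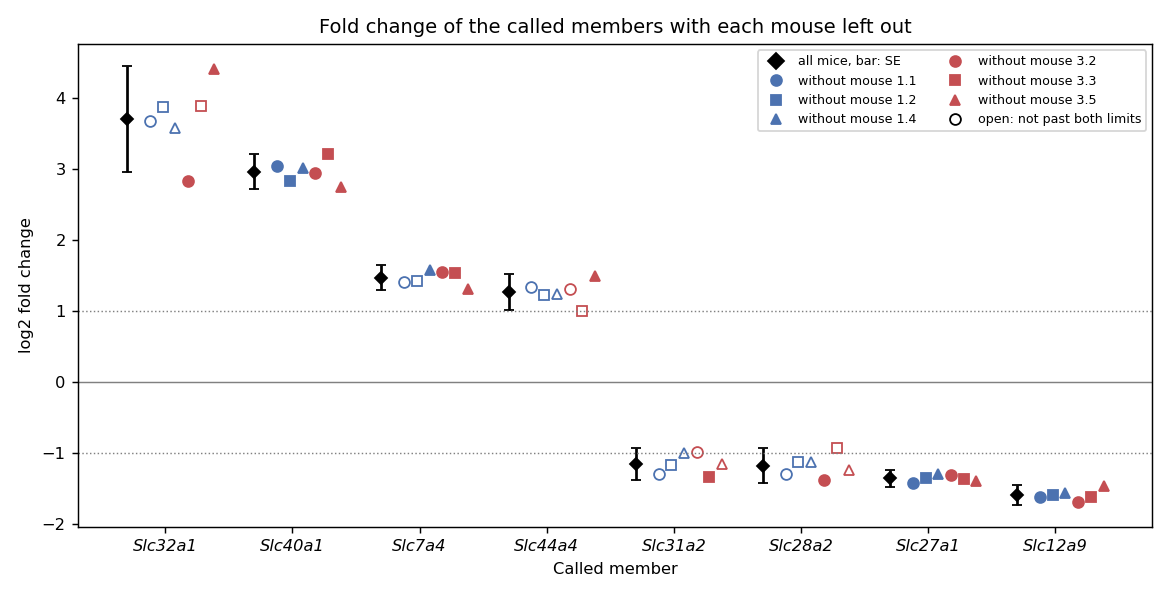
Log2 fold change (*Hoxa9*/*IRX3* minus *Hoxa9*/MTV, vertical axis) of the 8 called members with all 6 mice (diamond, bar: SE) and with each mouse left out, with dotted lines at the 2-fold limits; open symbols mark fits in which the member did not pass both limits. *Slc40a1*, *Slc27a1* and *Slc12a9* have filled symbols throughout, and *Slc44a4*, *Slc31a2* and *Slc28a2* are filled in 1 of the 6 fits with a mouse left out.

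The direction over all members was near that of all tested genes. Fold changes were above 0 in 58 members and below 0 in 81, so 41.7% were above 0, beside 42.5% of all tested genes. The median was -0.07, beside -0.06 for all tested genes, and under median-of-ratios scaling and quantile normalization it changed sign to 0.01 and 0.01, with 71 members above 0 and 68 below in either. The median absolute log2 fold change was 0.23, beside 0.24 for all tested genes, and 73 members lay within 1.2-fold. A change of at least 2-fold was fitted in 11 members, 7.9% of them beside 6.8% of all tested genes, and 3 of the 11 did not pass the test: *Slc38a1*, *Slc4a8* and *Slc2a6*. The cohorts did not overlap in 53 members, beside 33.7% of all tested genes: in 22 every *Hoxa9*/*IRX3* mouse was above every *Hoxa9*/MTV mouse, beside 12.2%, and in 31 every *Hoxa9*/*IRX3* mouse was below, beside 21.6%. Under median-of-ratios scaling these counts were 28 and 25, and under quantile normalization 29 and 22, so the excess of lower members depends on the scaling. The median log2 fold change of all tested genes turned under these scalings as well, to 0.0056 and 0.0171. Their share without overlap is not given under either, so these counts are not read as particular to the members.

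**Figure D3:**
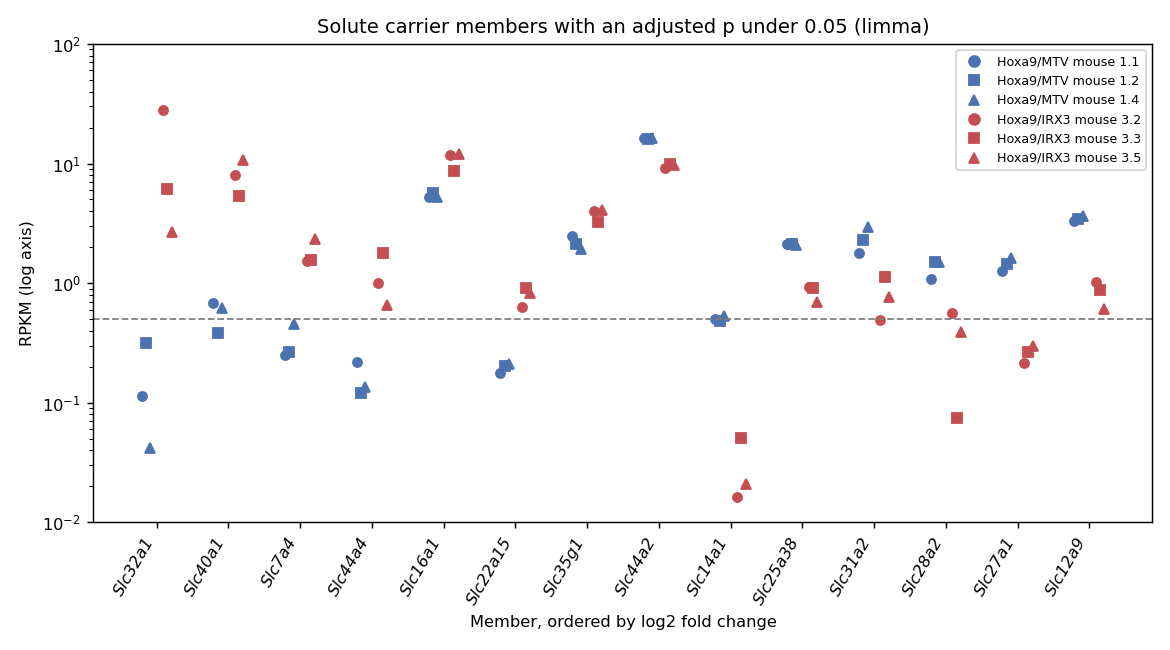
RPKM (log axis) of 14 of the 15 members with an adjusted p under 0.05 in each mouse, ordered by log2 fold change; blue symbols are *Hoxa9*/MTV mice, red symbols *Hoxa9*/*IRX3* mice, and the dashed line marks 0.5 RPKM. The cohorts do not overlap in any of the 14, and the red symbols of *Slc32a1* and *Slc28a2* are the most spread.

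**Figure D4:**
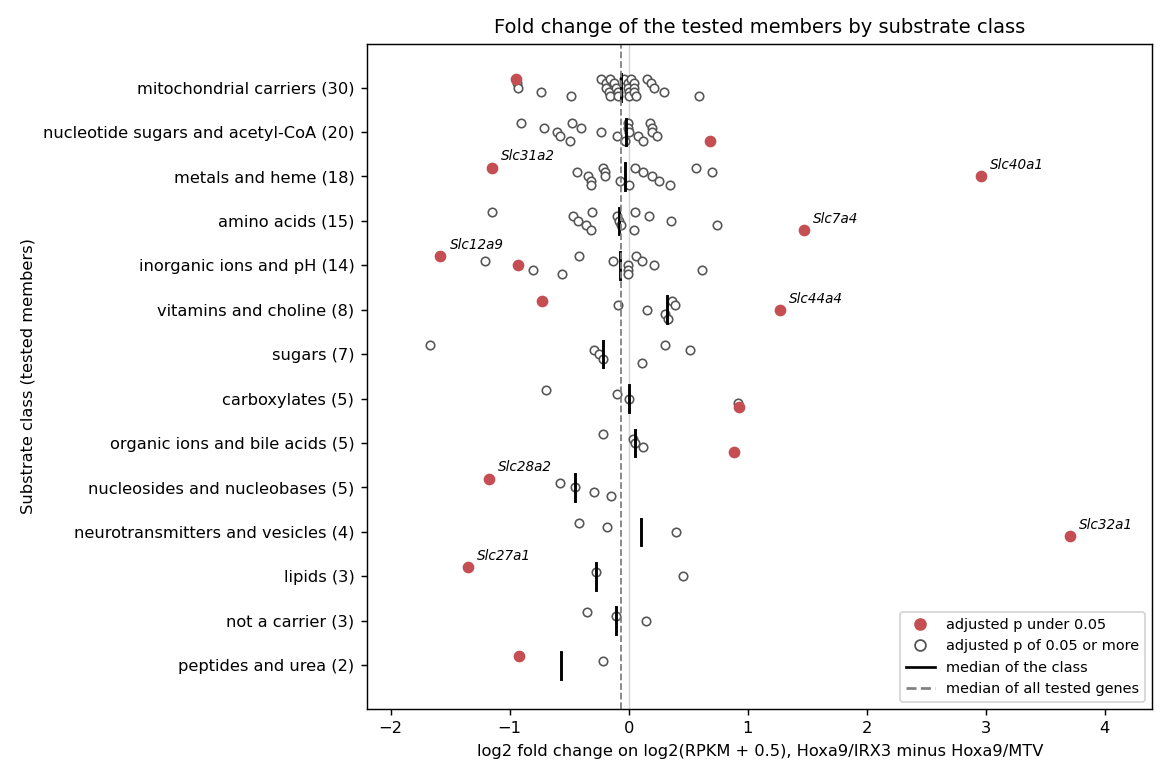
Log2 fold change (*Hoxa9*/*IRX3* minus *Hoxa9*/MTV) of each tested member by substrate class, with the number of tested members in parentheses; filled points have an adjusted p under 0.05 in limma, black bars are class medians and the dashed line is the median of all tested genes. Nucleoside and nucleobase carriers lie below 0 in all 5 members with all mice, while most classes spread on both sides.

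Of the 6 called members with a RefSeq promoter, *Slc28a2* and *Slc44a4* are not shown here. Upstream sequences of the others, *Slc31a2*, *Slc12a9*, *Slc27a1* and *Slc32a1*, are given as examples, to let the promoters be read beside the values. Each runs from 250 bases before to 50 bases after a RefSeq transcript start (build GRCm38.p6), which for *Slc31a2* lies inside the annotated gene, downstream of the start of its longest transcript. They were searched on both strands for ACANNTGT, a palindrome made of the half-site of Iroquois homeodomain proteins such as *IRX3*, and for TGATGNAA, an amino acid response element; the motifs do not overlap each other in these windows. ACANNTGT was found in 7.38% of 32851 promoters of this length and TGATGNAA in 3.97%. Of the 141 members 104 matched an entry; ACANNTGT was in 4 of these (*Slc27a3*, *Slc31a2*, *Slc25a45* and *Slc35b3*) and TGATGNAA in 1 (*Slc50a1*). Of the 8 called members 6 had an entry, all but *Slc40a1* and *Slc7a4*. Capitals mark the only match among these 6, which begins 230 bases before that start of *Slc31a2*. The 104 promoters had a median GC content of 63.3% and a median of 20.5 CpG, beside 52.7% and 7 over all promoters.
*Slc31a2*, chr4:62286179-62286478, + strand: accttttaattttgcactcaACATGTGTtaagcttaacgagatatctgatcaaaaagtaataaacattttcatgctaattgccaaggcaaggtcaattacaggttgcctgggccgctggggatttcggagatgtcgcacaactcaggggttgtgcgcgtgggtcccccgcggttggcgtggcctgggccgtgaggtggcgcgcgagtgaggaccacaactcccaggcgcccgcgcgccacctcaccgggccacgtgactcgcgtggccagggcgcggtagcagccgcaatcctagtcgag
*Slc12a9*, chr5:137333533-137333832, - strand: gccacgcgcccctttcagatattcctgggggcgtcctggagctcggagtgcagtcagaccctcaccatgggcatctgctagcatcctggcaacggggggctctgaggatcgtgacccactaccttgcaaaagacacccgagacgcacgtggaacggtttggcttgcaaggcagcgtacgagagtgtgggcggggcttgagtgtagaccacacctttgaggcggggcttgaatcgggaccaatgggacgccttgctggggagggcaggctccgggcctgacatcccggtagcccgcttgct
*Slc27a1*, chr8:71568621-71568920, + strand: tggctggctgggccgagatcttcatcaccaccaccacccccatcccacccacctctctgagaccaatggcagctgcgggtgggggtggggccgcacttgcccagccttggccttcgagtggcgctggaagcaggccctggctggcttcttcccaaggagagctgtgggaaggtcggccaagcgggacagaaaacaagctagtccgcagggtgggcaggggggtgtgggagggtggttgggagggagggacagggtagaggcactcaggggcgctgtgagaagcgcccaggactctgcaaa
*Slc32a1*, chr2:158610508-158610807, + strand: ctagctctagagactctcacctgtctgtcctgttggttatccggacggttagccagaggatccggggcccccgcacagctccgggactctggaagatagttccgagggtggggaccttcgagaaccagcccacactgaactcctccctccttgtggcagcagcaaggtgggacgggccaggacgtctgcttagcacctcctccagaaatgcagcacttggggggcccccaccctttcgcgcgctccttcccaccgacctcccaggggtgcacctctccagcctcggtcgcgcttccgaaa
A match is a run of letters and says nothing of binding, and the absence of a match says only that these letters are not in the window.

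Among the 18 metal and heme carriers the iron exporter rose, a copper carrier fell, and none of the 13 zinc carriers passed at an adjusted p under 0.05 in limma (2 of the 13 had an unadjusted p under 0.05). *Slc40a1* (ENSMUSG00000025993, chr1:45908068-45926523, - strand) encodes ferroportin, which releases iron from cells. It measured 0.6801, 0.378 and 0.622 RPKM in the *Hoxa9*/MTV mice and 7.998, 5.32 and 10.6 in the *Hoxa9*/*IRX3* mice. The lowest *Hoxa9*/*IRX3* mouse, 3.3 at 5.32 RPKM, stood far above the highest *Hoxa9*/MTV mouse, 1.1 at 0.680. The ratio of cohort means was 14.2 and the log2 fold change 2.96 (SE 0.252, adjusted p 0.00356), and over 17 alternatives the adjusted p ran from 0.00288 to 0.0326. In bulk RNA fewer cells of a type and less RNA per cell cannot be told apart, here or for any carrier that follows.

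Iron handling genes were listed beside the carriers, with earlier results of these data known. Of 10 genes 9 were tested, 1 rose at an adjusted p under 0.05, beside 1.84% of all tested genes, and none was called; at an unadjusted p under 0.05 3 of the 9 passed. The gene that rose was *Heph*, the ferroxidase that oxidizes iron released by ferroportin, with 0 RPKM in every *Hoxa9*/MTV mouse and 0.545, 0.518 and 0.284 in the *Hoxa9*/*IRX3* mice. Against a floor of 3 reads per library that is at least 159-fold higher (log2 fold change 0.91 on the scale used, adjusted p 0.03698). Also under the unadjusted limit were *Cp*, higher in every *Hoxa9*/*IRX3* mouse, and *Hmox1*, lower in every *Hoxa9*/*IRX3* mouse, neither past the adjusted limit. *Heph* and *Cp* passed the filter in *Hoxa9*/*IRX3* mice alone, so they had to be high in that cohort to be tested. The transferrin receptor gene *Tfrc*, which brings iron in, measured 4.75, 5.41 and 6.96 RPKM in the *Hoxa9*/MTV mice and 8.19, 4.84 and 4.36 in the *Hoxa9*/*IRX3* mice, and these values overlapped. Ferritin light chain *Ftl1*, the most abundant of the list, measured 88.2, 188 and 104 RPKM in the *Hoxa9*/MTV mice and 95.7, 84.6 and 48.04 in the *Hoxa9*/*IRX3* mice, with mouse 1.2 well above the rest. The summed level of the list per exon length was 301, 519 and 352 in the *Hoxa9*/MTV mice and 324, 301 and 265 in the *Hoxa9*/*IRX3* mice.

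Macrophages and red cell precursors are the usual sites of high *Slc40a1*, so their markers stand beside it. Of 13 monocyte and macrophage genes 12 were in the table and 7 were tested; 1 was called higher, beside 1.10% of all tested genes, and 2 lower, beside 2.03%. *Vcam1*, an adhesion molecule of central macrophages and other cells, measured 1.99, 3.21 and 2.98 RPKM in the *Hoxa9*/MTV mice and 30.6, 15.6 and 49.3 in the *Hoxa9*/*IRX3* mice and was higher in every *Hoxa9*/*IRX3* mouse, as *Slc40a1* was. *Cd68* and *Ccr2* fell, *Cd68* with 67.9, 87.3 and 80.1 RPKM in the *Hoxa9*/MTV mice and 13.1, 18.3 and 6.71 in the *Hoxa9*/*IRX3* mice. *C1qc* was at 0 in all mice, and *C1qa* and *C1qb* reached at most 0.107 and 0.242 RPKM. The most abundant gene of the list was *Mpeg1*, with 449.9, 461 and 409.6 RPKM in the *Hoxa9*/MTV mice and 58.2, 505 and 131 in the *Hoxa9*/*IRX3* mice, and the summed level per exon length was 996, 1066 and 949.7 in the *Hoxa9*/MTV mice and 378, 946 and 392 in the *Hoxa9*/*IRX3* mice. Of 15 erythroid genes 12 were in the table, none passed the filter and 5 were at 0 in every mouse; their sum was between 0.873 and 2.02 per exon length, *Car1* was the most abundant, and no HBA or *Alas2* read was counted. Whether cells of another type take part in the rise of *Slc40a1* was not tested.

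The copper carrier that fell was not the main importer. *Slc31a2* (ENSMUSG00000066152, chr4:62262562-62298411, + strand), a copper carrier of endosomal membranes, measured 1.798, 2.28 and 2.97 RPKM in the *Hoxa9*/MTV mice and 0.491, 1.11 and 0.762 in the *Hoxa9*/*IRX3* mice. All *Hoxa9*/*IRX3* mice were below all *Hoxa9*/MTV mice, with mouse 3.2 the lowest. In limma this was a change of -1.15 in log2 units (SE 0.226, adjusted p 0.0386), but the call was lost with any mouse but 3.3 left out, with the lowest adjusted p of these 5 fits at 0.0538 (without mouse 3.2) and the highest at 0.154 (without mouse 1.4). It was lost too with all gene types tested (adjusted p 0.0658), with no filter (0.0808) and with array weights (0.0687), and a pseudocount of 1 brought the log2 fold change to -0.90, under the limit; over 17 alternatives the adjusted p ran from 0.0322 to 0.154. The main copper importer *Slc31a1* lies 62316 bases from it and measured 3.08, 2.57 and 3.497 RPKM in the *Hoxa9*/MTV mice and 1.57, 2.84 and 2.095 in the *Hoxa9*/*IRX3* mice, values that overlapped.

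The zinc carriers were the largest set of metal carriers. The exporters, Slc30 members, numbered 5, and the cohorts overlapped in all 5 (in 4 under either other scaling); *Slc30a1*, which lowers zinc at the plasma membrane, measured 4.502, 3.96 and 5.41 RPKM in the *Hoxa9*/MTV mice and 3.66, 4.58 and 4.89 in the *Hoxa9*/*IRX3* mice, with log2 fold change -0.07, which was 0.01 and 0.03 under median-of-ratios scaling and quantile normalization. *Slc30a6* passed the threshold in *Hoxa9*/*IRX3* mice alone, with 0.383, 0.353 and 0.459 RPKM in the *Hoxa9*/MTV mice and 0.536, 0.6201 and 0.438 in the *Hoxa9*/*IRX3* mice. The importers, Slc39 members, numbered 8. *Slc39a8*, which also takes up manganese and other metals, measured 0.213, 0.156 and 0.181 RPKM in the *Hoxa9*/MTV mice and 0.758, 0.3803 and 0.727 in the *Hoxa9*/*IRX3* mice; it passed the threshold in *Hoxa9*/*IRX3* mice alone, the cohorts did not overlap, and the ratio of means was 3.39. The log2 fold change was 0.70 with an adjusted p of 0.0759, or 0.0212 without mouse 3.3 within a range of 0.0212 to 0.233; it was called per exon length and met the study's criterion. *Slc39a3* was the other importer without overlap, at 2.44, 1.92 and 2.57 RPKM in the *Hoxa9*/MTV mice and 3.92, 4.08 and 3.02 in the *Hoxa9*/*IRX3* mice and adjusted p 0.0858. In *Slc39a4*, the gut zinc importer, mouse 3.3 had 0 RPKM and the other 5 mice 0.506 to 0.879.

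The remaining metal carriers did not pass the test. *Slc48a1*, which moves heme out of endosomes and lysosomes and had the highest level of all members, measured 29.2, 33.7 and 28.98 RPKM in the *Hoxa9*/MTV mice and 37.4, 35.6 and 44.2 in the *Hoxa9*/*IRX3* mice. Each *Hoxa9*/*IRX3* mouse was above each *Hoxa9*/MTV mouse, by a log2 fold change of 0.34 (adjusted p 0.218). *Slc11a2*, the proton-coupled iron importer, measured 0.392, 0.285 and 0.514 RPKM in the *Hoxa9*/MTV mice and 0.914, 0.494 and 0.351 in the *Hoxa9*/*IRX3* mice and overlapped. Its macrophage relative *Slc11a1* was not a member, with 0.416, 0.144 and 0.3995 RPKM in the *Hoxa9*/MTV mice and 0.2804, 0.206 and 0.0115 in the *Hoxa9*/*IRX3* mice.

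**Figure D5:**
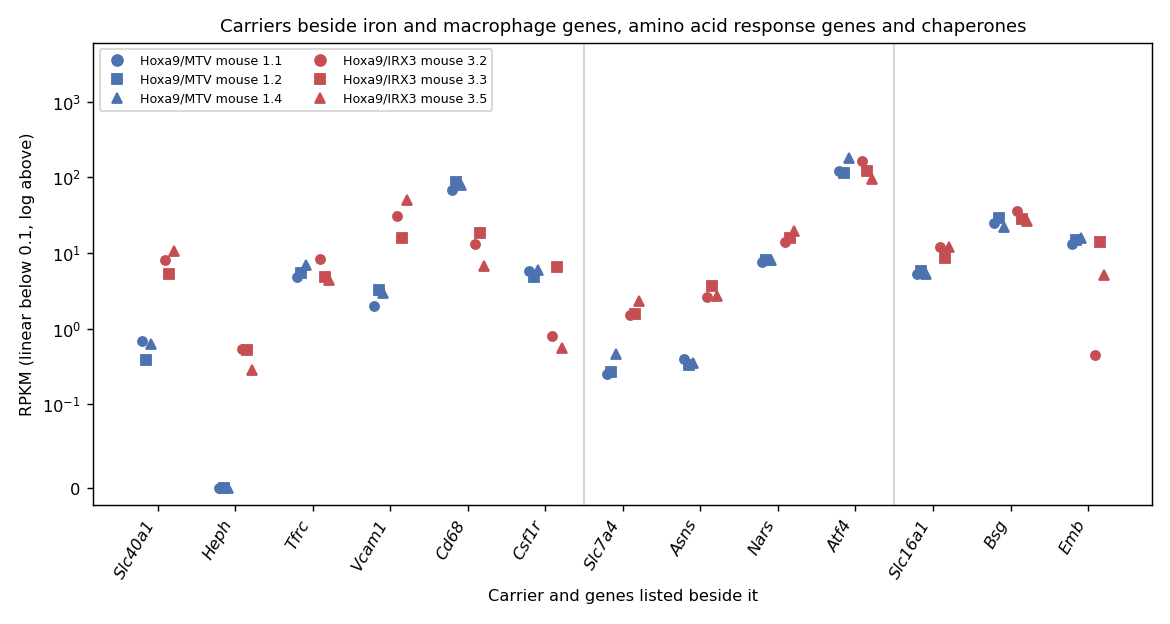
RPKM in each mouse (linear below 0.1, log above) of *Slc40a1* beside iron and macrophage genes (left), *Slc7a4* beside genes of the amino acid response (middle) and *Slc16a1* beside its chaperones (right); blue symbols are *Hoxa9*/MTV mice, red symbols *Hoxa9*/*IRX3* mice. *Heph* lies at 0 in all *Hoxa9*/MTV mice, *Vcam1* and *Cd68* separate the cohorts in opposite directions, and *Emb* is lowest in mouse 3.2.

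The mitochondrial carriers are the largest class, with 30 members, of which 1 fell at an adjusted p under 0.05, beside 3.52% of all tested genes, and none rose, beside 1.84%. The cohorts did not overlap in 9, beside 33.7% of all tested genes: 7 lower, beside 21.6%, and 2 higher, beside 12.2%, which became 5 and 4 under both other scalings. The class median was -0.06, and 0.02 and 0.00 under median-of-ratios scaling and quantile normalization.

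The member that fell was *Slc25a38*, which imports glycine for the first step of heme synthesis, with 2.13, 2.104 and 2.06 RPKM in the *Hoxa9*/MTV mice and 0.934, 0.909 and 0.701 in the *Hoxa9*/*IRX3* mice. The *Hoxa9*/MTV mice were nearly equal, and every *Hoxa9*/*IRX3* mouse was below them, with mouse 3.5 the lowest. On the log2 scale the difference came to -0.95 (SE 0.112, adjusted p 0.00927), inside the 2-fold limit; without mouse 1.1, 1.2 or 1.4 the adjusted p was 0.0628, 0.0655 and 0.0701, the upper end of a range from 0.00832 over 17 alternatives. *Slc25a37*, mitoferrin 1, the iron importer used by red cell precursors, measured 7.17, 7.76 and 7.81 RPKM in the *Hoxa9*/MTV mice and 5.65, 2.81 and 3.19 in the *Hoxa9*/*IRX3* mice, lower in every *Hoxa9*/*IRX3* mouse without passing the test (adjusted p 0.0743; 0.0109 and called without mouse 3.2, with a log2 fold change of -1.21, in a range of 0.0109 to 0.238). *Slc25a28*, mitoferrin 2, measured 7.28, 6.66 and 8.57 RPKM in the *Hoxa9*/MTV mice and 3.66, 6.14 and 3.42 in the *Hoxa9*/*IRX3* mice, lower in every *Hoxa9*/*IRX3* mouse (adjusted p 0.113; 0.0275 without mouse 3.3, with a log2 fold change of -0.98, and up to 0.328 in the other such fits). None of the erythroid genes passed the filter in these cells, as given beside *Slc40a1*.

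Adenine nucleotide carriers set the level of the class. *Slc25a5* exchanges ADP for ATP and measured 84.9, 93.2 and 86.7 RPKM in the *Hoxa9*/MTV mice and 82.8, 84.1 and 90.99 in the *Hoxa9*/*IRX3* mice; the cohorts overlapped, and the log2 fold change of -0.04 was 0.05 under median-of-ratios scaling. Its close relative *Slc25a4* measured 27.2, 27.2 and 22.97 RPKM in the *Hoxa9*/MTV mice and 15.1, 23.4 and 29.2 in the *Hoxa9*/*IRX3* mice. The genes are similar in sequence and *Slc25a5* has a processed copy, so the split of reads between them is uncertain. Carriers of phosphate (*Slc25a3*), citrate (*Slc25a1*), oxoglutarate (*Slc25a11*), carnitine esters (*Slc25a20*) and NAD (*Slc25a51*) had log2 fold changes from -0.16 to 0.19, none past the test; *Slc25a11* was higher in every *Hoxa9*/*IRX3* mouse by 0.16, though mice 1.2 and 3.3 were nearly equal at 16.7 RPKM.

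Some members of the class varied by mouse. *Slc25a29*, a carrier of basic amino acids, measured 1.02, 1.35 and 1.65 RPKM in the *Hoxa9*/MTV mice and 0.372, 1.61 and 4.57 in the *Hoxa9*/*IRX3* mice, so the *Hoxa9*/*IRX3* mice held both the lowest and the highest value. *Slc25a35* was highest in mouse 3.3, with 1.11, 0.676 and 1.04 RPKM in the *Hoxa9*/MTV mice and 0.742, 3.697 and 1.41 in the *Hoxa9*/*IRX3* mice. *Slc25a45* measured 11.9, 7.88 and 10.3 RPKM in the *Hoxa9*/MTV mice and 7.47, 3.68 and 4.35 in the *Hoxa9*/*IRX3* mice, lower in every *Hoxa9*/*IRX3* mouse (adjusted p 0.104, and 0.0292 without mouse 3.2, the lowest of the 6 such fits, whose highest was 0.296). *Slc25a15*, the ornithine carrier of the urea cycle, was also lower without overlap, with 0.657, 1.12 and 1.201 RPKM in the *Hoxa9*/MTV mice and 0.607, 0.544 and 0.4998 in the *Hoxa9*/*IRX3* mice, as were *Slc25a16* and *Slc25a17*. *Slc25a39*, needed for mitochondrial glutathione, was higher in every *Hoxa9*/*IRX3* mouse by a log2 fold change of 0.29 (adjusted p 0.281). *Slc25a47* and *Slc25a33* were over the threshold in 4 and 2 mice, of both cohorts.

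Among the 14 carriers of inorganic ions and acid, a cation-chloride cotransporter relative was the called member, and it was lower in every *Hoxa9*/*IRX3* mouse under the deposited values and both other scalings. *Slc12a9* (ENSMUSG00000037344, chr5:137314558-137333597, - strand), an interacting relative of the potassium-chloride cotransporters, measured 3.296, 3.45 and 3.63 RPKM in the *Hoxa9*/MTV mice and 1.02, 0.868 and 0.606 in the *Hoxa9*/*IRX3* mice. It is the called member over 0.5 RPKM in all 6 mice, and the highest *Hoxa9*/*IRX3* mouse, at 1.02 RPKM, lay well under the lowest *Hoxa9*/MTV mouse, at 3.30. This gave a log2 difference of -1.58 (SE 0.142, adjusted p 0.00447), and the adjusted p ran from 0.00293 to 0.0423 over 17 alternatives.

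A potassium-chloride cotransporter, of the kind that lets cells lose volume, was lower without passing the test. *Slc12a4* measured 0.949, 0.925 and 1.11 RPKM in the *Hoxa9*/MTV mice and 0.245, 0.652 and 0.223 in the *Hoxa9*/*IRX3* mice, lower in every *Hoxa9*/*IRX3* mouse with mouse 3.3 the nearest (adjusted p 0.0731; without mouse 3.3 it was called, at 0.0155, the lowest of 6 such fits whose highest was 0.246).

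The 6 bicarbonate and sodium-proton carriers did not pass at an adjusted p under 0.05 in limma (2 had an unadjusted p under 0.05). *Slc4a8* measured 2.01, 4.24 and 3.99 RPKM in the *Hoxa9*/MTV mice and 1.79, 1.92 and 0.28 in the *Hoxa9*/*IRX3* mice, lower in every *Hoxa9*/*IRX3* mouse with mouse 3.5 far below the rest (log2 fold change -1.21, adjusted p 0.188), and *Slc4a7* measured 0.867, 0.809 and 0.741 RPKM in the *Hoxa9*/MTV mice and 0.603, 0.448 and 0.397 in the *Hoxa9*/*IRX3* mice (adjusted p 0.119). The sodium-proton exchanger *Slc9a8* was lowest in mouse 3.5, at 0.456 RPKM beside 1.74 to 1.80 in the *Hoxa9*/MTV mice. The class had 6 members lower, beside 21.6% of all tested genes, and 1 higher, beside 12.2%, without overlap, which became 5 and 1 under median-of-ratios scaling and 4 and 2 under quantile normalization. The mitochondrial sodium-calcium exchanger *Slc8b1* had the highest level of the class per exon length, 28.04, with a log2 fold change of -0.01 that turned to 0.07 and 0.11 under the other scalings. The magnesium carrier *Slc41a1* was the member of the class that stood higher in every *Hoxa9*/*IRX3* mouse, with 0.942, 0.552 and 0.856 RPKM in the *Hoxa9*/MTV mice and 1.28, 1.84 and 1.26 in the *Hoxa9*/*IRX3* mice (adjusted p 0.101). Phosphate carriers *Slc20a1* and *Slc20a2* and the sulfate carrier *Slc26a2* overlapped. The red cell anion exchanger *Slc4a1* was not a member and had at most 2 reads in any mouse.

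Of the 15 amino acid carriers 1 was called higher, beside 1.10% of all tested genes, and none fell at an adjusted p under 0.05, beside 3.52%. *Slc7a4* (ENSMUSG00000022756, chr16:17572018-17583214, - strand), placed by sequence with the cationic amino acid carriers, measured 0.2497, 0.266 and 0.457 RPKM in the *Hoxa9*/MTV mice and 1.52, 1.56 and 2.31 in the *Hoxa9*/*IRX3* mice. It passed the threshold in *Hoxa9*/*IRX3* mice alone, and the lowest of them, at 1.52 RPKM, lay well above the highest *Hoxa9*/MTV mouse, at 0.457. Limma put the log2 fold change at 1.47 (SE 0.179, adjusted p 0.0105; 0.01099 to 0.0685 over 17 alternatives). The call was lost without mouse 1.1 (adjusted p 0.0580) and without mouse 1.2 (0.0685).

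The heteromeric leucine carrier consists of a light chain, *Slc7a5*, and a heavy chain, *Slc3a2*. *Slc7a5* measured 4.78, 5.58 and 7.85 RPKM in the *Hoxa9*/MTV mice and 7.09, 4.33 and 5.897 in the *Hoxa9*/*IRX3* mice and *Slc3a2* 4.698, 6.24 and 8.21 RPKM in the *Hoxa9*/MTV mice and 6.84, 5.05 and 5.62 in the *Hoxa9*/*IRX3* mice. Both chains were highest in mouse 1.4, the cohorts overlapped, and the fold change of *Slc7a5*, -0.06, turned to 0.02 and 0.03 under the other scalings. The glutamine carriers *Slc1a5* and *Slc38a2* measured 10.7, 10.2 and 14.4 RPKM in the *Hoxa9*/MTV mice and 13.7, 7.84 and 7.42 in the *Hoxa9*/*IRX3* mice, and 33, 26.2 and 36.5 RPKM in the *Hoxa9*/MTV mice and 31.01, 32.7 and 26.1 in the *Hoxa9*/*IRX3* mice, again overlapping. Without mouse 3.2 the log2 fold change of *Slc1a5* went from -0.31 to -0.58, in a range of -0.58 to -0.15 over the 6 such fits. *Slc43a2*, a carrier of large neutral amino acids, measured 1.68, 1.43 and 1.82 RPKM in the *Hoxa9*/MTV mice and 1.45, 1.02 and 0.852 in the *Hoxa9*/*IRX3* mice and overlapped, with a log2 fold change of -0.43 (adjusted p 0.174). *Slc38a1*, also a glutamine carrier, measured 5.57, 5.04 and 6.55 RPKM in the *Hoxa9*/MTV mice and 0.335, 3.96 and 5.34 in the *Hoxa9*/*IRX3* mice. Mouse 3.2 alone was low, and the fitted log2 fold change of -1.15 became -0.28 without it (adjusted p 0.3503 with all mice, 0.221 to 0.579 over the alternatives).

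The class held 3 members lower without overlap, beside 21.6% of all tested genes, and none of these passed the test. *Slc36a1*, a lysosomal carrier with the highest level of the class per exon length, 45.5, measured 9.07, 8.76 and 8.997 RPKM in the *Hoxa9*/MTV mice and 7.93, 8.52 and 4.79 in the *Hoxa9*/*IRX3* mice, and *Slc38a9*, which reports lysosomal arginine to the growth regulator mTORC1, measured 0.682, 0.701 and 0.789 RPKM in the *Hoxa9*/MTV mice and 0.498, 0.629 and 0.341 in the *Hoxa9*/*IRX3* mice. In both genes every *Hoxa9*/*IRX3* mouse was below every *Hoxa9*/MTV mouse, as it was in *Slc38a7*; under quantile normalization *Slc36a1* overlapped, and without mouse 3.5 its log2 fold change went from -0.36 to -0.12, in a range of -0.50 to -0.12 over the 6 such fits. Its relative *Slc36a4* overlapped, with a log2 fold change of 0.36. *Slc36a2* varied in either cohort, with 0.238, 0.7104 and 0.241 RPKM in the *Hoxa9*/MTV mice and 1.94, 1.05 and 0.3203 in the *Hoxa9*/*IRX3* mice. The cystine importer *Slc7a11* was not a member because its RPKM reached 0.188 at most, over a gene with long introns; its reads numbered 7, 0 and 56 in the *Hoxa9*/MTV mice and 918, 539 and 112 in the *Hoxa9*/*IRX3* mice, so each *Hoxa9*/*IRX3* mouse was above each *Hoxa9*/MTV mouse.

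Genes of the amino acid response, which are switched on by amino acid shortage through *Atf4*, were listed beside these carriers. Of 17 genes 16 were tested, 3 rose at an adjusted p under 0.05, beside 1.84% of all tested genes, 1 of them called, beside 1.10%, and none fell, beside 3.52%. The called gene was *Asns*, asparagine synthetase, with 0.4002, 0.326 and 0.349 RPKM in the *Hoxa9*/MTV mice and 2.58, 3.67 and 2.67 in the *Hoxa9*/*IRX3* mice (log2 fold change 2.00, adjusted p 0.00298). *Asns* passed the filter in *Hoxa9*/*IRX3* mice alone, so it had to be high in that cohort to be tested. *Nars*, which loads asparagine on its tRNA, measured 7.69, 8.03 and 8.12 RPKM in the *Hoxa9*/MTV mice and 13.8, 15.5 and 19.3 in the *Hoxa9*/*IRX3* mice, and *Aldh18a1*, of proline synthesis, measured 0.894, 0.775 and 0.909 RPKM in the *Hoxa9*/MTV mice and 1.87, 1.66 and 1.902 in the *Hoxa9*/*IRX3* mice. *Atf4* itself, the most abundant gene of the list, measured 119, 115 and 181 RPKM in the *Hoxa9*/MTV mice and 163, 121 and 95.5 in the *Hoxa9*/*IRX3* mice and overlapped, and *Psat1* was lower in every *Hoxa9*/*IRX3* mouse without passing the test. The summed level of the list per exon length was 393, 404.5 and 515 in the *Hoxa9*/MTV mice and 695, 502 and 399 in the *Hoxa9*/*IRX3* mice.

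A carrier of synaptic vesicles had the largest fitted rise. *Slc32a1* (ENSMUSG00000037771, chr2:158610767-158615748, + strand) encodes the carrier that loads GABA and glycine into synaptic vesicles. It measured 0.114, 0.314 and 0.0415 RPKM in the *Hoxa9*/MTV mice and 28.02, 6.12 and 2.67 in the *Hoxa9*/*IRX3* mice. Membership came through *Hoxa9*/*IRX3* mice alone, so the gene had to be high in that cohort to be described here. All *Hoxa9*/*IRX3* mice were above all *Hoxa9*/MTV mice, but the *Hoxa9*/*IRX3* mice spread widely, with mouse 3.2 at the top and mouse 3.5 at the bottom. In limma this was a change of 3.70 in log2 units (SE 0.743, adjusted p 0.0415). The call was lost without mouse 1.1, 1.2, 1.4 or 3.3 (adjusted p 0.140, 0.143, 0.162 and 0.0686), and without mouse 3.2 it held with a log2 fold change of 2.82. It was lost as well with all gene types (0.0700), no filter (0.0878), a pseudocount of 1 (0.0609) and voom (0.239, the upper end of a range from 0.0166), and the gene did not meet the study's criterion.

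The class of neurotransmitter and vesicle carriers has 3 more members. The taurine carrier *Slc6a6*, its highest by level, measured 3.17, 3.12 and 3.36 RPKM in the *Hoxa9*/MTV mice and 4.86, 1.22 and 1.83 in the *Hoxa9*/*IRX3* mice, with mouse 3.2 above and mice 3.3 and 3.5 below all *Hoxa9*/MTV mice; without mouse 3.2 its adjusted p was 0.0346, beside 0.541 with all mice and up to 0.915 in other fits. The lysosomal sialic acid exporter *Slc17a5* was higher in every *Hoxa9*/*IRX3* mouse, with 0.886, 0.841 and 0.636 RPKM in the *Hoxa9*/MTV mice and 1.32, 1.35 and 0.919 in the *Hoxa9*/*IRX3* mice (adjusted p 0.179). The vesicular nucleotide carrier *Slc17a9* overlapped.

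Among the 5 monocarboxylate carriers, *Slc16a1*, which carries lactate and pyruvate, rose in every *Hoxa9*/*IRX3* mouse to about 2-fold, and the other 4 members overlapped. Its values were 5.199, 5.72 and 5.26 RPKM in the *Hoxa9*/MTV mice and 11.9, 8.57 and 11.99 in the *Hoxa9*/*IRX3* mice. The log2 fold change of 0.93 (SE 0.162, adjusted p 0.0292) was inside the 2-fold limit and reached 1.01 and 1.02 under the other scalings and 1.08 without mouse 3.3, where the gene was called. The adjusted p ran from 0.0134 to 0.138 over 17 alternatives and was 0.123, 0.1197, 0.138 and 0.0561 without mice 1.1, 1.2, 1.4 and 3.5. The lactate exporter of glycolytic cells *Slc16a3* measured 7.07, 7.85 and 4.51 RPKM in the *Hoxa9*/MTV mice and 22.9, 13.9 and 5.85 in the *Hoxa9*/*IRX3* mice; mouse 3.2 was highest and mouse 3.5 lay among the *Hoxa9*/MTV mice (adjusted p 0.284).

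A list of chaperones and partner proteins of carriers and channels, *Bsg*, *Emb*, *Ostm1* and *Tusc3*, had 3 genes tested, and none passed at an adjusted p under 0.05, while 0 had an unadjusted p under 0.05. Basigin, *Bsg*, which brings the lactate carriers to the membrane and was the most abundant, measured 24.7, 29.3 and 21.9 RPKM in the *Hoxa9*/MTV mice and 36.03, 27.99 and 26.7 in the *Hoxa9*/*IRX3* mice and overlapped. Embigin, *Emb*, measured 13.2, 14.6 and 15.8 RPKM in the *Hoxa9*/MTV mice and 0.454, 13.97 and 5.07 in the *Hoxa9*/*IRX3* mice, with mouse 3.2 far below all others, the mouse in which *Slc16a3* was highest. The summed level of the list per exon length was 263, 295 and 275 in the *Hoxa9*/MTV mice and 173, 279 and 188 in the *Hoxa9*/*IRX3* mice.

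None of the 7 sugar carriers passed at an adjusted p under 0.05 in limma, while 2 had an unadjusted p under 0.05. The glucose carriers *Slc2a1* and *Slc2a3* measured 1.29, 1.58 and 1.78 RPKM in the *Hoxa9*/MTV mice and 2.26, 1.69 and 1.27 in the *Hoxa9*/*IRX3* mice, and 0.9603, 0.952 and 1.15 RPKM in the *Hoxa9*/MTV mice and 1.68, 0.917 and 2.79 in the *Hoxa9*/*IRX3* mice, and overlapped. *Slc2a6*, a glucose carrier family member of lysosomes in macrophages, measured 7.24, 7.26 and 7.98 RPKM in the *Hoxa9*/MTV mice and 0.782, 5.33 and 1.605 in the *Hoxa9*/*IRX3* mice. Each *Hoxa9*/*IRX3* mouse was below each *Hoxa9*/MTV mouse, but mouse 3.3 stood close to them, and the log2 fold change of -1.67 had an adjusted p of 0.112, or 0.0111 without mouse 3.3, in a range up to 0.306. *Slc50a1*, the highest of the class per exon length at 17.1, *Slc37a4*, which takes glucose 6-phosphate into the endoplasmic reticulum, and *Slc2a8* overlapped, and *Slc45a4* was higher in every *Hoxa9*/*IRX3* mouse without passing the test.

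The 5 nucleoside and nucleobase carriers had fold changes below 0 with all mice, under the deposited values and both other scalings, while 42.5% of all tested genes were above 0. The class median was -0.45, or -0.37 and -0.36 under those scalings. Without mouse 3.5 *Slc29a2* turned to 0.02 and the class median was -0.29, that of *Slc29a3*. *Slc28a2* (ENSMUSG00000027219, chr2:122426477-122461137, + strand), which takes up purine nucleosides with sodium, measured 1.09, 1.49 and 1.49 RPKM in the *Hoxa9*/MTV mice and 0.567, 0.0736 and 0.391 in the *Hoxa9*/*IRX3* mice. It is lower in every *Hoxa9*/*IRX3* mouse and lowest in mouse 3.3, the reverse of *Slc2a6*. On the log2 scale the difference came to -1.18 (SE 0.246, adjusted p 0.0463). The call is among the least stable: without mice 1.1, 1.2, 1.4 and 3.5 the adjusted p was 0.123, 0.180, 0.183 and 0.0833, and without mouse 3.3 the log2 fold change was -0.92.

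Other settings ended that call too. The adjusted p of *Slc28a2* was 0.0548 and 0.0588 under median-of-ratios scaling and quantile normalization, 0.0783 with all gene types, 0.0870 with no filter, 0.0776 per exon length, 0.0775 with a pseudocount of 0.1 and 0.0701 with voom, with a range of 0.0292 to 0.183 over 16 alternatives. A pseudocount of 1 brought its log2 fold change to -0.82. The purine nucleobase carrier *Slc43a3*, highest in level at 24.8 per exon length, measured 5.78, 5.88 and 5.99 RPKM in the *Hoxa9*/MTV mice and 5.09, 4.24 and 3.31 in the *Hoxa9*/*IRX3* mice, and the lysosomal nucleoside carrier *Slc29a3* measured 4.37, 3.69 and 4.004 RPKM in the *Hoxa9*/MTV mice and 3.42, 2.98 and 1.53 in the *Hoxa9*/*IRX3* mice; both were below all *Hoxa9*/MTV mice in every *Hoxa9*/*IRX3* mouse (adjusted p 0.15 and 0.221). The equilibrative carriers *Slc29a1* and *Slc29a2* overlapped, *Slc29a1* with 5.07, 5.11 and 4.21 RPKM in the *Hoxa9*/MTV mice and 6.09, 3.53 and 3.57 in the *Hoxa9*/*IRX3* mice.

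The 8 vitamin and choline carriers held relatives that moved in opposite directions. *Slc44a4* (ENSMUSG00000007034, chr17:34914466-34930436, + strand), a choline-like carrier that takes up thiamine pyrophosphate in the colon, measured 0.2195, 0.121 and 0.136 RPKM in the *Hoxa9*/MTV mice and 0.996, 1.79 and 0.651 in the *Hoxa9*/*IRX3* mice. It passed the threshold in *Hoxa9*/*IRX3* mice alone, each of them above every *Hoxa9*/MTV mouse, with mouse 3.3 highest. This gave a log2 difference of 1.27 (SE 0.257, adjusted p 0.0431). The adjusted p was 0.128, 0.162, 0.162 and 0.0610 without mice 1.1, 1.2, 1.4 and 3.2, and without mouse 3.3 the log2 fold change was 0.998, just under the limit. The call was also lost with all gene types (0.0754), no filter (0.0793), a pseudocount of 1 (0.0551) and voom (0.0661), in a range of 0.0238 to 0.162.

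Its relative *Slc44a2*, the highest of the class per exon length at 51.1, fell with little spread. It measured 16.3, 16.1 and 16.3 RPKM in the *Hoxa9*/MTV mice and 9.19, 9.88 and 9.72 in the *Hoxa9*/*IRX3* mice. The mice of either cohort were nearly equal and the cohorts stood apart, with a change of -0.73 in log2 units (SE 0.114, adjusted p 0.02197; without mice 1.1, 1.2 and 1.4 it was 0.110, 0.107 and 0.111, the upper end of a range from 0.0107). Folate carriers did not pass: *Slc19a1*, which also carries methotrexate, measured 2.701, 2.88 and 3.08 RPKM in the *Hoxa9*/MTV mice and 3.602, 2.25 and 2.35 in the *Hoxa9*/*IRX3* mice and overlapped. The multivitamin carrier *Slc5a6*, which passed the threshold in *Hoxa9*/*IRX3* mice alone with 0.482, 0.308 and 0.497 RPKM in the *Hoxa9*/MTV mice and 0.806, 0.522 and 0.613 in the *Hoxa9*/*IRX3* mice, and the ascorbate carrier *Slc23a2* were higher in every *Hoxa9*/*IRX3* mouse (adjusted p 0.287 and 0.262), though in *Slc23a2* mice 1.4 and 3.3 were nearly equal at 0.654 RPKM. *Slc19a2*, *Slc46a1* and *Slc52a2* overlapped.

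Of the 3 fatty acid transport proteins, which pair uptake of fatty acids with activation to CoA esters, 1 was called lower, beside 2.03% of all tested genes. *Slc27a1* (ENSMUSG00000031808, chr8:71568882-71587302, + strand) measured 1.27, 1.44 and 1.62 RPKM in the *Hoxa9*/MTV mice and 0.216, 0.264 and 0.296 in the *Hoxa9*/*IRX3* mice. It passed the threshold in *Hoxa9*/MTV mice alone, and every *Hoxa9*/*IRX3* mouse was far below every *Hoxa9*/MTV mouse. Limma put the log2 fold change at -1.35 (SE 0.123, adjusted p 0.00484; 0.00468 to 0.0423 over 16 alternatives); a pseudocount of 1 brought it to -0.95, and a filter of a mean of at least 1 RPKM removed the gene. *Slc27a4*, the highest in level, was higher in every *Hoxa9*/*IRX3* mouse, with 2.17, 2.33 and 1.72 RPKM in the *Hoxa9*/MTV mice and 2.65, 2.67 and 3.82 in the *Hoxa9*/*IRX3* mice (adjusted p 0.169), and *Slc27a3* overlapped.

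The 20 carriers of nucleotide sugars and acetyl-CoA supply the Golgi and endoplasmic reticulum, and 1 rose at an adjusted p under 0.05, beside 1.84% of all tested genes. *Slc35g1* measured 2.46, 2.14 and 1.91 RPKM in the *Hoxa9*/MTV mice and 3.997, 3.26 and 4.07 in the *Hoxa9*/*IRX3* mice, higher in every *Hoxa9*/*IRX3* mouse (log2 fold change 0.68, SE 0.134, adjusted p 0.0392); without mice 1.1, 1.2, 1.4, 3.2 and 3.5 the adjusted p was 0.109, 0.158, 0.170, 0.0640 and 0.0773, and it was 0.0650, 0.0613, 0.0692, 0.0558 and 0.0614 with all gene types, no filter, array weights, exon length and voom, in a range of 0.0349 to 0.17. The cohorts did not overlap in 5 members on the higher side, beside 12.2% of all tested genes, and 5 on the lower, beside 21.6%, which became 5 and 3 under median-of-ratios scaling and 5 and 2 under quantile normalization. *Slc35c1*, which supplies GDP-fucose for selectin ligands, measured 43.7, 37.1 and 44.9 RPKM in the *Hoxa9*/MTV mice and 48.1, 32.6 and 28.6 in the *Hoxa9*/*IRX3* mice and overlapped. The carriers of CMP-sialic acid (*Slc35a1*) and acetyl-CoA (*Slc33a1*) overlapped, and those of UDP-galactose (*Slc35a2*) and of the sulfate donor PAPS (*Slc35b2*) were higher in every *Hoxa9*/*IRX3* mouse by log2 fold changes of 0.20 and 0.23 without passing the test.

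On the lower side the largest difference of this class was in *Slc35c2*, with 15.4, 13.97 and 15.8 RPKM in the *Hoxa9*/MTV mice and 13.1, 8.01 and 4.49 in the *Hoxa9*/*IRX3* mice. Mouse 3.5 was lowest and mouse 3.2 close to the *Hoxa9*/MTV mice; the log2 fold change was -0.90 (adjusted p 0.174), and without mouse 3.2 it was -1.25 and the gene was called (0.0421, the lowest of the 6 such fits, whose highest was 0.393). *Slc35f6*, *Slc35e4*, *Slc35e2* and *Slc35b3* were the others lower without overlap, with log2 fold changes of -0.71 to -0.40. *Slc35f5* and *Slc35d1* passed the threshold in 4 and 3 mice.

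Of the 5 carriers of organic ions and bile acids, *Slc22a15*, a carrier of zwitterions, was the one that rose, with 0.176, 0.2003 and 0.2099 RPKM in the *Hoxa9*/MTV mice and 0.6304, 0.903 and 0.8301 in the *Hoxa9*/*IRX3* mice. It passed the threshold in *Hoxa9*/*IRX3* mice alone and was near 4-fold by the ratio of means, 4.03. In limma this was a log2 difference of 0.88 (SE 0.138, adjusted p 0.02197; without mice 1.1, 1.2 and 1.4 it was 0.104, 0.106 and 0.102, the upper end of a range from 0.0119), and at a pseudocount of 0.1 it was 1.58. *Slc22a4*, the ergothioneine carrier of blood cells, was lower in every *Hoxa9*/*IRX3* mouse, with 2.63, 2.59 and 2.53 RPKM in the *Hoxa9*/MTV mice and 2.25, 2.33 and 1.92 in the *Hoxa9*/*IRX3* mice (adjusted p 0.272), and the carnitine carrier *Slc22a5* overlapped. *Slc22a14* had the highest level of the class, but genes on the same strand, *Myd88* and *Oxsr1*, hold reads equal to 99.5% of its own, so its level is uncertain.

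The urea carrier *Slc14a1* fell to near absence: it measured 0.503, 0.484 and 0.529 RPKM in the *Hoxa9*/MTV mice and 0.0161, 0.05097 and 0.0209 in the *Hoxa9*/*IRX3* mice. It was a member through *Hoxa9*/MTV mice alone, where it lay at the threshold. The fitted log2 fold change came to -0.93 (SE 0.138, adjusted p 0.0194) on the scale used and -2.87 per exon length; without mice 1.1, 1.2 and 1.4 the adjusted p was 0.105, 0.106 and 0.102 and with all gene types 0.0519, in a range of 0.00272 to 0.106. The lysosomal peptide and histidine carrier *Slc15a4* measured 2.099, 1.66 and 1.56 RPKM in the *Hoxa9*/MTV mice and 1.57, 1.43 and 1.35 in the *Hoxa9*/*IRX3* mice and overlapped in mice 1.4 and 3.2. Its relatives *Slc15a3* and *Slc15a2* were not members and were highest in mouse 3.3, at 0.686 and 1.27 RPKM, with 0.232 at most in the other mice. The drug and cation exporter *Slc47a1* had 1267 reads in mouse 3.3, 1 in mouse 3.5 and 0 in the others.

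A few members match by name only. *Slc9a3r1*, a scaffold protein named for a sodium-proton exchanger, measured 5.21, 5.46 and 5.85 RPKM in the *Hoxa9*/MTV mice and 7.03, 4.12 and 7.82 in the *Hoxa9*/*IRX3* mice and overlapped. *Slc4a1ap* and *Slc7a6os*, named after neighbouring or binding carriers, had log2 fold changes of -0.11 and -0.35 (adjusted p 0.536 and 0.531). The pseudogenes *Slc2a4rg-ps* and *Slc39a1-ps* measured 2.24, 1.48 and 1.89 RPKM in the *Hoxa9*/MTV mice and 3.08, 2.996 and 1.61 in the *Hoxa9*/*IRX3* mice, and 6.88, 6.96 and 8.86 RPKM in the *Hoxa9*/MTV mice and 8.73, 7.58 and 7.89 in the *Hoxa9*/*IRX3* mice. *Slc39a1* and *Slc39a1-ps* are near copies, and how reads fall between them is uncertain.

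Carriers whose names lie outside the Slc pattern were listed for comparison. Of 39 genes 36 were in the table and 23 were tested. In limma 2 fell at an adjusted p under 0.05, beside 3.52% of all tested genes, none rose, beside 1.84%, and none was called. At an unadjusted p under 0.05 there were 7 of the 23, given without the share of all tested genes, so nothing is read from it. *Mtch2*, an outer mitochondrial membrane member of the mitochondrial carrier family, measured 2.76, 2.75 and 3.003 RPKM in the *Hoxa9*/MTV mice and 1.9, 1.105 and 1.03 in the *Hoxa9*/*IRX3* mice (adjusted p 0.0475), and *Sfxn3*, a mitochondrial serine carrier, measured 6.45, 5.58 and 6.02 RPKM in the *Hoxa9*/MTV mice and 3.83, 3.15 and 3.63 in the *Hoxa9*/*IRX3* mice (adjusted p 0.03096). In both, every *Hoxa9*/*IRX3* mouse was below every *Hoxa9*/MTV mouse. The median log2 fold change of the list was -0.08, and its most abundant gene was *Tmem165*, with a sum over the list of 487, 511 and 506 in the *Hoxa9*/MTV mice and 496, 466 and 442 in the *Hoxa9*/*IRX3* mice per exon length.

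Position was shared by few members. Whether neighbouring members move together was not tested. As examples, *Slc31a2* was lower without overlap beside *Slc31a1*, which overlapped with a log2 fold change also below 0 (-0.43). *Slc36a1* was lower without overlap beside *Slc36a2*, which overlapped with a log2 fold change above 0 (0.74). Genes with over 25% of a member's reads overlapped 17 members, with genes on the same strand in, among others, *Slc22a14*, *Slc39a7* (with *Gm20427*, 109.3%) and *Slc10a3* (with *Ubl4a*, 243%). Values of these genes are uncertain, and none of the 8 called members is among the 17.

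Other blood and marrow cell types that the sort could hold were checked by their markers. The shares of all tested genes called are 1.10% higher and 2.03% lower. Of 10 neutrophil genes 1 was called higher, *Retnlg* with 1.32, 1.08 and 1.09 RPKM in the *Hoxa9*/MTV mice and 3.82, 3.88 and 8.75 in the *Hoxa9*/*IRX3* mice, and the summed level per exon length, led by *Ngp*, was 3977, 5930 and 4013 in the *Hoxa9*/MTV mice and 5405, 2854 and 8475 in the *Hoxa9*/*IRX3* mice. Of 8 mast cell and basophil genes 4 were tested and 2 called lower, *Gata2* with 4.31, 2.95 and 5.84 RPKM in the *Hoxa9*/MTV mice and 0.198, 0.0155 and 0.773 in the *Hoxa9*/*IRX3* mice and *Cpa3*, while *Ms4a2* was higher in every *Hoxa9*/*IRX3* mouse without passing the test, with 0.2897, 0.279 and 0.542 RPKM in the *Hoxa9*/MTV mice and 1.09, 0.6098 and 0.933 in the *Hoxa9*/*IRX3* mice; *Fcer1a*, *Cma1* and *Tpsb2* were at 0, *Mcpt8* was the most abundant, and the sum was 58.7, 58.5 and 80.1 in *Hoxa9*/MTV mice and 14.3, 22.6 and 21.2 in *Hoxa9*/*IRX3* mice. Of 8 B cell genes 2 were tested and *Cd79b* was called lower, with 6.11, 7.07 and 7.01 RPKM in the *Hoxa9*/MTV mice and 0.3298, 0.149 and 2.31 in the *Hoxa9*/*IRX3* mice, while *Vpreb1* was higher in every *Hoxa9*/*IRX3* mouse without passing the test, with 0.0926, 0.0493 and 0.169 RPKM in the *Hoxa9*/MTV mice and 0.231, 0.376 and 2.72 in the *Hoxa9*/*IRX3* mice; *Cd79b* was also the most abundant, *Ms4a1* and *Pax5* were at 0, and the sum was 15.3, 17.1 and 17.5 in *Hoxa9*/MTV mice and 2.17, 1.54 and 11.1 in *Hoxa9*/*IRX3* mice. The sums of the mast cell and basophil, B cell and stroma lists were lower in every *Hoxa9*/*IRX3* mouse than in any *Hoxa9*/MTV mouse, though not every gene on them went that way. The monocyte and macrophage sum was lower too, with mouse 3.3 (946) nearly equal to mouse 1.4 (949.7), and the sort and lineage sum was higher in every *Hoxa9*/*IRX3* mouse. Their part in the carrier values was not tested.

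The remaining lists showed little RNA or a single gene. Of 9 T and NK cell genes *Nkg7* was tested, and it set the sum of 42.8, 42.3 and 29.4 in *Hoxa9*/MTV mice and 129, 19.6 and 621 in *Hoxa9*/*IRX3* mice, while *Cd3d* and *Gzma* were at 0. Of 6 megakaryocyte genes *Gp9* was tested and not called, *Gp1ba* and *Ppbp* were at 0, and the sum was at most 1.91 in any mouse. Of 6 stroma genes *Pdgfrb* was tested, the most abundant, with 0.944, 1.28 and 1.74 RPKM in the *Hoxa9*/MTV mice and 0.01697, 0.473 and 0.348 in the *Hoxa9*/*IRX3* mice, lower in every *Hoxa9*/*IRX3* mouse with an adjusted p of 0.0546; the sum was 7.07, 9.42 and 12.9 in *Hoxa9*/MTV mice and 0.724, 4.08 and 3.96 in *Hoxa9*/*IRX3* mice, and none of the 6 was at 0 in every mouse.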

How the data were processed

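PolyA RNA of 6 leukemias (3 per cohort) was sequenced in pairs of 75 bases. Per the labels and the study's methods, the authors aligned reads to GRCm38 with Bowtie2 2.2.1, filtered them with SAMtools 0.1.19, counted them per Ensembl gene and computed RPKM; the deposited table holds RPKM of 41128 genes. Reads per gene were recovered from the size of a single read and gave 7979246 to 9803621 per library. Floors cover counting error only. The recovered reads were whole numbers in all libraries for 65.0% of tested genes and for 96 members. For the rest, among them the called members *Slc7a4* and *Slc27a1*, the recovered reads are approximate. Levels per exon length and the voom fit may be off for these genes too. Gene type, span and exon length came from GENCODE M21. Protein-coding genes over 0.5 RPKM in at least 1 mouse (9522) were fitted with limma 3.58.1 in R 4.3.3 on log2(RPKM + 0.5), with eBayes (trend) and Benjamini-Hochberg adjustment over all of them. The fit was run on simulated data with equal spread in both cohorts. That run cannot show how the fit behaves with the larger spread of the *Hoxa9*/*IRX3* mice, and nothing is read from it. The smallest exact p for 3 mice against 3 is above 0.05, so no exact test was run.

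The members, the substrate classes and the gene lists (sort and lineage, neutrophil, monocyte and macrophage, erythroid, B cell, T and NK cell, mast cell and basophil, megakaryocyte, stroma, carriers outside the pattern, chaperones, amino acid response, iron handling) were chosen with earlier results of these data known. Named genes are the called members, the highest member and the largest rise and fall of each class, preset leukemia and myeloid carriers, and members next to the threshold; other members are named as examples after their values were seen. *Slc4a1ap*, *Slc7a6os*, *Slc2a4rg-ps* and *Slc39a1-ps* were set apart as not carriers after the data were seen. Alternatives were another pseudocount, filter, gene set, scaling, weighting, length, voom, the study's criterion and leaving out each mouse; non-overlap under the other scalings was added after seeing the data. Promoters came from RefSeq.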

Additional observations from a re-analysis of the deposited data

How the results depend on the processing

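Over 764 values of 43 named carriers under the alternatives, 657 kept their direction and their side of the p limit of 0.05. The limit was crossed by 66 values that lost it and 11 that gained it. The p was adjusted in every setting but the study's criterion, whose p is unadjusted, so these counts mix the 2 kinds of p. Another 30 values, in 10 genes, changed sign, and none of these 10 had an adjusted p under 0.05 in the main limma fit. Against 4 members called higher, 4 lower, 15 with an adjusted p under 0.05 and 298 genes called, the counts were 2, 2 and 7 with all gene types, where more genes are tested; 2, 2, 9 and 175 with no filter; 2 lower with a mean of at least 1 RPKM; 2 higher and 1 lower with a pseudocount of 1; and 9 lower and 664 of all genes by the study's criterion. With each mouse left out, members called higher ran from 1 to 4, lower from 2 to 7, with an adjusted p under 0.05 from 3 to 19, and all genes called from 61 to 409. The cause was not tested.

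Sign changes were these. Under median-of-ratios scaling: *Slc25a5* 0.0507, *Slc30a1* 0.0115, *Slc38a2* 0.0059, *Slc7a5* 0.0181 and *Slc8b1* 0.0704. Under quantile normalization: *Slc19a1* 0.0023, *Slc30a1* 0.0341, *Slc7a5* 0.0287 and *Slc8b1* 0.111. *Slc15a3* was -0.0292 per exon length, -0.108 with a pseudocount of 0.1 and -1.19 with voom; *Slc8b1* was 0.0228 with array weights and 0.0115 by the study's criterion. Values with any mouse removed spanned *Slc15a3* -0.317 to 0.2965, *Slc19a1* -0.272 to 0.0158, *Slc25a5* -0.0799 to 0.0013, *Slc2a1* -0.0534 to 0.267, *Slc30a1* -0.165 to 0.0409, *Slc38a2* -0.215 to 0.0196, *Slc3a2* -0.2845 to 0.0877, *Slc7a5* -0.215 to 0.122, *Slc8b1* -0.1696 to 0.127 and *Slc9a3r1* -0.0249 to 0.399. The cohorts of 3 mice set the precision.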
